A study of Mus musculus with 8 samples.

Results

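Solute carrier genes, the genes of membrane transport proteins that mice name with the prefix Slc and a family number, were followed in sorted lung macrophages. Every gene of the deposited expression table whose symbol begins with Slc and a digit was taken, except Slc7a11 and Slc16a3, which were set aside. This gave 223 of the 12701 genes in the table, grouped by family number into 12 substrate classes. The study sequenced RNA from tissue-resident (alveolar) macrophages sorted from the lungs of C57BL/6 mice as tumors formed. The tumors were grown from KP cells, a mouse lung tumor line, given through the tail vein. The groups were naive mice without tumor (n = 3 libraries), mice at day 15 of tumor growth (d15, n = 2) and mice at day 35 (d35, n = 3). The growth protocol gives a harvest period of 15 to 30 days, so the later time is uncertain. Each library was made from 20000 sorted cells with a low-input kit that took 1 ng of RNA. Whether each library stands for its own animal is not stated in the labels. The p-values below therefore speak only of the spread among these libraries, which may be technical. In a bulk library, fewer cells of a type and less RNA per cell cannot be told apart.

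Solute carriers move nutrients, ions and metabolites across the cell surface and across the membranes of mitochondria and lysosomes, most of them by coupling one solute to another or by letting it follow its gradient. A macrophage relies on them to feed on the material it engulfs, since amino acids, nucleosides, sugars, heme and metals freed in the lysosome leave it largely through carriers. Alveolar macrophages clear surfactant and inhaled particles and take up iron, and carriers for metals and heme are part of how they keep these from microbes.

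Promoters of 4 members are printed for the patterns described below. Slc30a4 and Slc31a1 are a zinc and a copper carrier that were higher at d35, and Slc7a8 and Slc2a6 are an amino acid and a sugar carrier that were lower at d15. Each sequence is the 250 bases before the RefSeq start of the gene on its coding strand, 5′ to 3′, build GRCm38.p6. Capitals mark matches on either strand to TGCNCNC, the core of the metal response element (bound by Mtf1, the zinc-sensing transcription factor). The windows are chr2:122702664-122702913 on the minus strand for Slc30a4 and chr4:62360451-62360700 on the plus strand for Slc31a1. Those of the other pair are chr14:54781887-54782136 for Slc7a8 and chr2:27027999-27028248 for Slc2a6, both on the minus strand.
Slc30a4: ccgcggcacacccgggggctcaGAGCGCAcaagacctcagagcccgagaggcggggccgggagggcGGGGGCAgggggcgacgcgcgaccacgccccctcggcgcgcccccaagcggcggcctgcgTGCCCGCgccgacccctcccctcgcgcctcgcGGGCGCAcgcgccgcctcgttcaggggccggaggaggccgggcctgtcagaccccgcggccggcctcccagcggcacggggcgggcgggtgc
Slc31a1: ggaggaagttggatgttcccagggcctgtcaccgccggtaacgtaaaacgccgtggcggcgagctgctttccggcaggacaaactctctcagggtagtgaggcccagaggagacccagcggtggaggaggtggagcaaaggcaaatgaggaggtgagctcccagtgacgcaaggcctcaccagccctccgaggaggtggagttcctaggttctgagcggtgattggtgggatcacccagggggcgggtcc
Slc7a8: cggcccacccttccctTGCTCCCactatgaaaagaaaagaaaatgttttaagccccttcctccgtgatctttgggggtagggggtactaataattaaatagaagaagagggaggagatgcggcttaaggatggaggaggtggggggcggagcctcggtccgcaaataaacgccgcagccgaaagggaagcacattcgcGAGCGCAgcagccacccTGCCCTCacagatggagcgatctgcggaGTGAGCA
Slc2a6: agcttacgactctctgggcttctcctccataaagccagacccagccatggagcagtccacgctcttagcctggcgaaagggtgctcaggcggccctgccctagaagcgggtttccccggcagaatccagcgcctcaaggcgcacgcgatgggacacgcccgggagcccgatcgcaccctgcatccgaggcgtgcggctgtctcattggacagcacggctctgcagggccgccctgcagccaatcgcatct
The Slc30a4 window held 4 matches and the Slc7a8 window 4, while those of Slc31a1 and Slc2a6 held 0. The motif is short and common. It was found in 44.4% of 32851 promoter windows of this length from 27025 genes, and in 49.8% of 217 windows from the 168 solute carrier genes with an entry. Among metal and heme carriers, 17 of 26 windows (65.4%) held it. The E-box CACGTG lay in 6.02% of all windows and 13.4% of the members' windows, and the AP-1 motif TGANTCA in 6.75% and 5.99%. None of the 4 printed windows held either one. A match describes the letters of a window and is no evidence that a factor binds there, and windows of 1 gene can overlap.

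The libraries held 27465745 to 39572173 reads, recovered from the deposited values, over the genes of the table. Values are scaled CPM, a depth-scaled count, that is reads plus 0.5 over the authors' effective library size, so that 1 read was worth 0.0247 to 0.0353 in a library. Defining alveolar macrophage markers were present in every library, with Siglecf at 557 to 750 and Itgax at 744 to 969 scaled CPM. Of 14 such markers followed, 2 were higher at d15, and 4 were higher and 1 lower at d35. Their sum was 72070 to 77470 scaled CPM in naive, 91630 and 91860 in d15 and 99120 to 123100 in d35 libraries. Over all genes tested, 9.86% were higher and 6.32% lower at d35. Of the markers of other cells, 10 of 13 monocyte and interstitial macrophage genes were higher at d35 than in naive libraries, 9 of 14 endothelial genes were lower, and of 12 epithelial and tumor genes 3 were higher and 1 lower. The summed level of the monocyte and interstitial list was 535 to 614 in naive, 587 to 597 in d15 and 846 to 1352 scaled CPM in d35 libraries, where it was highest in replicate 1 and lowest in replicate 2. The endothelial list summed to 456 to 628, 353 to 415 and 390 to 503, and the epithelial and tumor list to 1441 to 1452, 1251 to 1365 and 1226 to 1344. Of 6 neutrophil genes 2 were higher at d35, with sums of 175 to 202, 149 and 222, and 138 to 271. Of 4 tested B cell genes 3 were lower, with sums of 10.8 to 16.3, 5.33 and 5.90, and 4.15 to 7.41, and of 8 tested fibroblast and smooth muscle genes 2 were lower, with sums of 32.1 to 71.4, 26.6 and 34.7, and 39.7 to 48.5. The keratins Krt8 and Krt18, both on the epithelial and tumor list, were at 0.34 scaled CPM or below in all naive and d15 libraries and at 7.26 to 18.8 at d35. They reached 1 scaled CPM only in d35 libraries and entered the test through that group, so their difference is a description. The gene with the fewest reads in the table held 41 over the 8 libraries, so no marker listed there was at 0 throughout. These lists move with the d35 results given below, and their part in those results was not tested.

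All 223 members had at least 1 read, and 193 reached 1 scaled CPM in 2 libraries and were tested. The 30 others included the sodium-driven nucleoside carrier Slc28a2 and the insulin-responsive glucose carrier Slc2a4. Solute carrier mRNA took 1.17% to 1.18% of the scaled signal of naive, 1.12% and 1.13% of d15 and 1.07% to 1.12% of d35 libraries, so that each tumor library lay below each naive one. Its sum was 11100 to 11600 scaled CPM, with overlapping groups. Levels of different genes are compared per kb of exon, averaged over the 8 libraries. Slc25a5, which swaps ADP for ATP across the inner mitochondrial membrane, was highest at 433 scaled CPM per kb. It has many processed pseudogene copies, so its level is uncertain. Next came Slc48a1, which carries heme out of the phagolysosome (89.2), the nucleoside carrier Slc29a1 (83.4), the mitochondrial oxoglutarate carrier Slc25a11 (74.9), the taurine carrier Slc6a6 (68.2) and the sodium/proton exchanger Slc9a4 (64.6).

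The leading carriers of the remaining classes were lower. Per kb, Slc9a3r1, a scaffold protein that only borrows the name, stood at 63.0, the nucleotide sugar carrier family member Slc35c2 at 41.9 and the riboflavin carrier Slc52a3 at 29.7 scaled CPM. The serotonin carrier Slc6a4 stood at 25.0, the bile acid carrier family member Slc10a3 at 22.3, the sugar carrier Slc50a1 at 20.9 and the lactate and pyruvate carrier Slc16a1 at 13.5. By class, median levels over the 8 libraries ran from 15.6 scaled CPM per kb for nucleotide sugar carriers to 0.701 for the mixed class of organic ion, peptide and other carriers. The median over all genes of the table was 4.77.

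**Figure D1:**
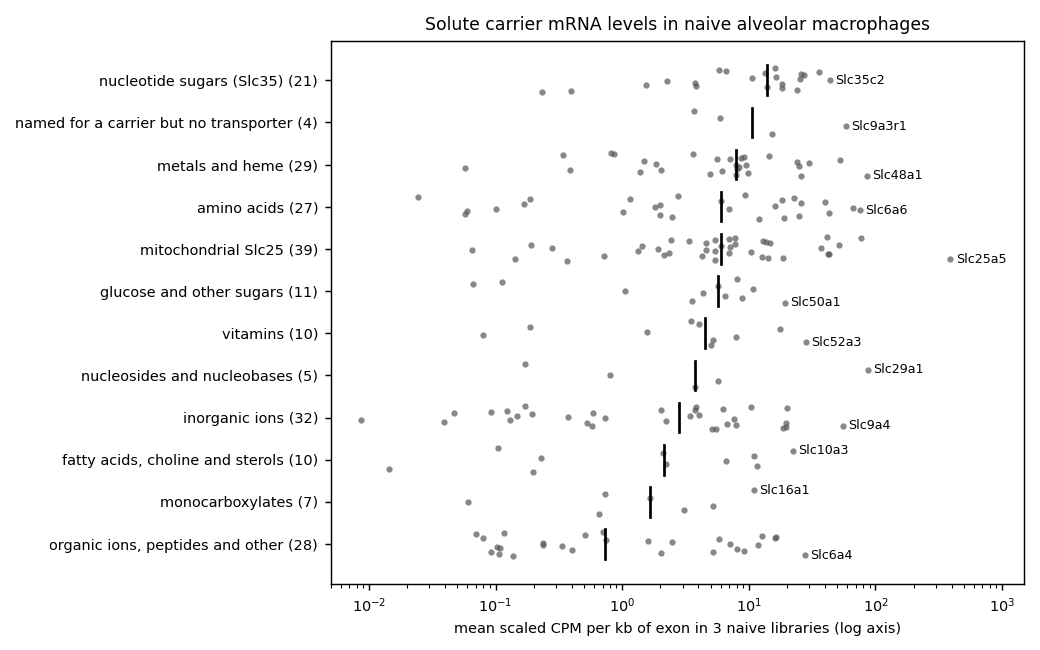
Mean level of each solute carrier gene in the 3 naive libraries, in scaled CPM per kb of exon on a log axis, by substrate class. Each point is a gene, the vertical bar is the class median, the number of genes stands in brackets and the highest gene of a class is named. Slc25a5 is farthest to the right, and most classes span at least from below 1 to above 10.

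The number of solute carrier genes past an adjusted p of 0.05 (limma over all 11273 genes tested) was near that of the whole table in each comparison with naive libraries. At d15, 10 of 193 tested members passed (5.18%, against 4.37% of all genes), 2 higher and 8 lower, where 2.37% of all genes were higher and 2.0% lower. At d35, 33 passed (17.1%, against 16.2%), 18 higher and 15 lower, against 9.86% and 6.32% of all genes. Between d35 and d15, 23 passed (11.9%, against 7.39%), 17 higher and 6 lower at d35, against 4.59% and 2.8% of all genes. Median log2 fold changes of the members tested were -0.057, 0.001 and 0.053, and those of all genes tested were 0.012, -0.002 and -0.003. Fold changes are given as log2(value + 1), which understates the change of low genes. The 3 comparisons share libraries, so their calls are not independent of each other. A total of 7 tested members (Slc44a3, Slc44a4, Slc26a9, Slc4a5, Slc39a4, Slc22a4 and Slc6a8) reached 1 scaled CPM only in d35 libraries and so entered the test through that group. Slc39a4, Slc22a4, Slc6a8 and Slc44a3 are among the 18 counted as higher at d35 than in naive libraries. Slc39a4, Slc22a4, Slc6a8 and Slc4a5 are among the 17 counted as higher than at d15.

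**Figure D2:**
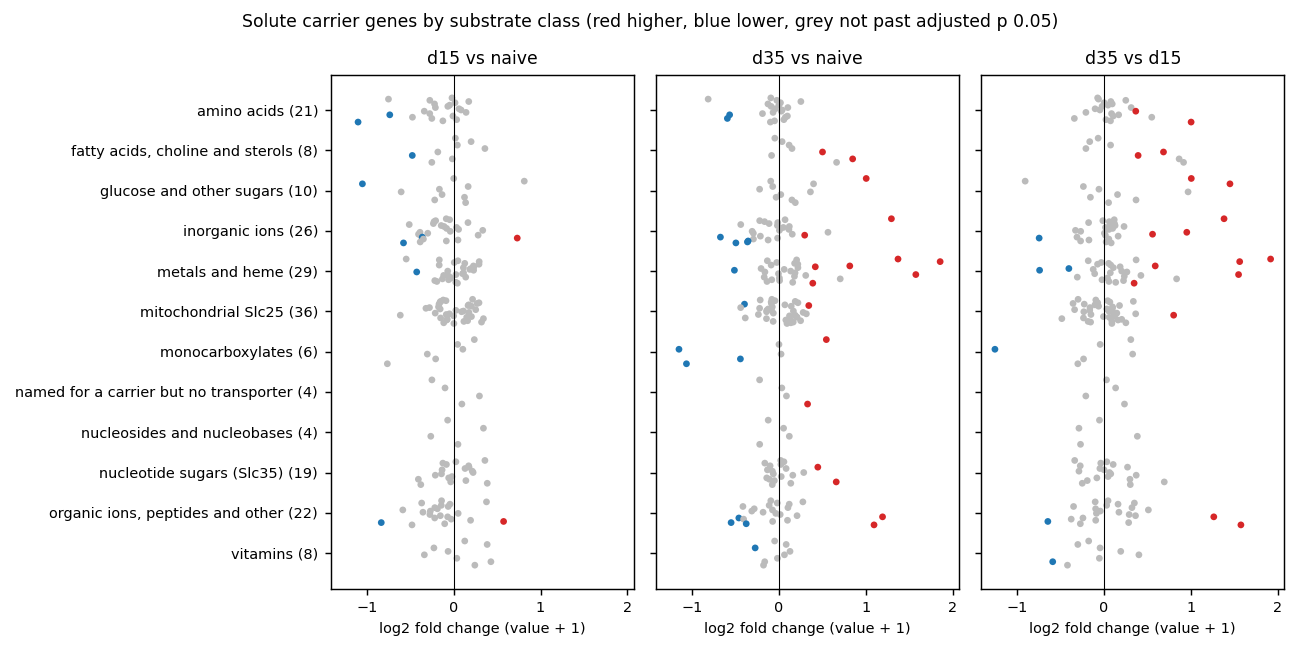
Log2 fold change of each tested solute carrier gene by substrate class, for d15 against naive, d35 against naive and d35 against d15 (number of genes tested in brackets, vertical line at 0). Red genes were higher and blue genes lower at adjusted p 0.05, and 8 of the 10 coloured points at d15 are blue.

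Amino acid carriers included the clearest fall at d15. Of 21 tested members of 27, 2 were lower at d15, 2 were lower at d35, and 2 were higher at d35 than at d15. Each count is 9.52% of those tested, against 4.37%, 16.2% and 7.39% of all genes. None was higher at d15 or d35 than in naive libraries by limma, edgeR or DESeq2, and none had an unadjusted p under 0.05 in that direction, while 9 at d15 and 4 at d35 had one for a fall. Over all tested members, 30 at d15 and 25 at d35 had an unadjusted p under 0.05 for a fall, and 16 and 31 for a rise. Slc7a8, a light chain that pairs with Slc3a2 to exchange neutral amino acids, was at 59.0, 60.7 and 59.9 scaled CPM in the naive libraries, 29.2 and 25.6 at d15, and 52.5, 56.2 and 59.2 at d35. Both d15 libraries lay below all 6 others. The fold change was -1.1 at d15 (SE 0.091, adjusted p = 0.000246), and 1.00 from d15 to d35 (SE 0.091, adjusted p = 0.000183). Naive libraries were 2.18-fold above d15 libraries and d35 libraries 2.04-fold above them. The d35 and naive libraries overlapped (log2 fold change -0.097, adjusted p = 0.441).

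The partner chain Slc3a2, also known as CD98, was at 208, 246 and 249 scaled CPM in naive, 192 and 178 in d15, and 248, 222 and 246 in d35 libraries. The d15 libraries were the lowest, and the difference passed between d35 and d15 (0.37, SE 0.096, adjusted p = 0.0435) but not against naive libraries (-0.34, adjusted p = 0.0655). Slc7a5, the other main light chain for large neutral amino acids, was at 96.7, 92.4 and 89.6 in naive, 80.3 and 75.5 in d15 and 56.9, 55.5 and 72.8 scaled CPM in d35 libraries. It fell at d35 (-0.59, SE 0.10, adjusted p = 0.00551), with no overlap between the groups. Slc7a1, which brings in arginine and lysine, was at 9.80, 13.8 and 11.5 in naive, 6.83 and 6.29 in d15 and 6.51, 7.47 and 8.64 in d35 libraries. It fell at d15 (-0.73, SE 0.17, adjusted p = 0.041) and at d35 (-0.57, SE 0.15, adjusted p = 0.031). Slc7a2, a more abundant member of the same family, was not called in any comparison. Its level was 363 to 421 scaled CPM in naive, 374 and 412 in d15 and 377 to 483 in d35 libraries.

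Other abundant amino acid carriers were not past the threshold at d35. The glutamine carrier Slc1a5 was at 88.6 to 102 scaled CPM in naive, 75.9 and 81.3 in d15 and 91.7 to 96.2 in d35 libraries. The neutral amino acid carrier Slc38a2 was at 212 to 253, 216 and 219, and 178 to 246. Slc7a7, which exports cationic amino acids and whose loss in people leads to alveolar protein build-up, was at 61.3 to 63.9, 54.1 and 60.1, and 53.6 to 64.6. The taurine carrier Slc6a6 was at 616 to 649, 517 and 529, and 537 to 577, below every naive library in both tumor groups, with adjusted p = 0.0528 at d15 and 0.0668 at d35. Among 29 tested genes of amino acid sensing and starvation, 1 was lower at d15 (the stress-induced pseudokinase Trib3, -0.91) and 6 were higher and 2 lower at d35. The shares called were 3.45% and 27.6%, against 4.37% and 16.2% of all genes. The 6 were Lamtor1, Lamtor2, Lamtor4 and Lamtor5, subunits of the lysosomal platform of mTORC1, the arginine sensor relative Castor2 and the stress factor Ddit3. The 2 were the small GTPase Rragb and Phgdh, the entry enzyme of serine synthesis.

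Of 10 tested sugar carriers, 1 was lower at d15, 1 was higher at d35 and 2 were higher at d35 than at d15. Of all genes, 2.0% were lower at d15, 9.86% were higher at d35 and 4.59% were higher at d35 than at d15. These 10 genes are too few to set against such shares. Slc2a1, the main glucose carrier GLUT1, was at 23.9, 28.8 and 31.5 scaled CPM in naive, 32.6 and 23.8 in d15 and 73.6, 42.6 and 58.7 in d35 libraries. The d35 libraries lay above all others, 2.08-fold over naive libraries (log2 fold change 1.01, SE 0.19, adjusted p = 0.00773). Slc2a6, a glucose carrier family member of lysosomes in inflammatory macrophages, was at 16.3, 23.6 and 15.4 in naive, 7.88 and 8.57 in d15 and 29.4, 20 and 24.0 in d35 libraries. The fold change was -1.05 at d15 (SE 0.20, adjusted p = 0.0224) and 1.45 from d15 to d35 (SE 0.20, adjusted p = 0.00189), while naive and d35 libraries overlapped. The neuronal-type glucose carrier Slc2a3 was far lower, at 0.17 scaled CPM per kb against 11.2 for Slc2a1 over all libraries.

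**Figure D3:**
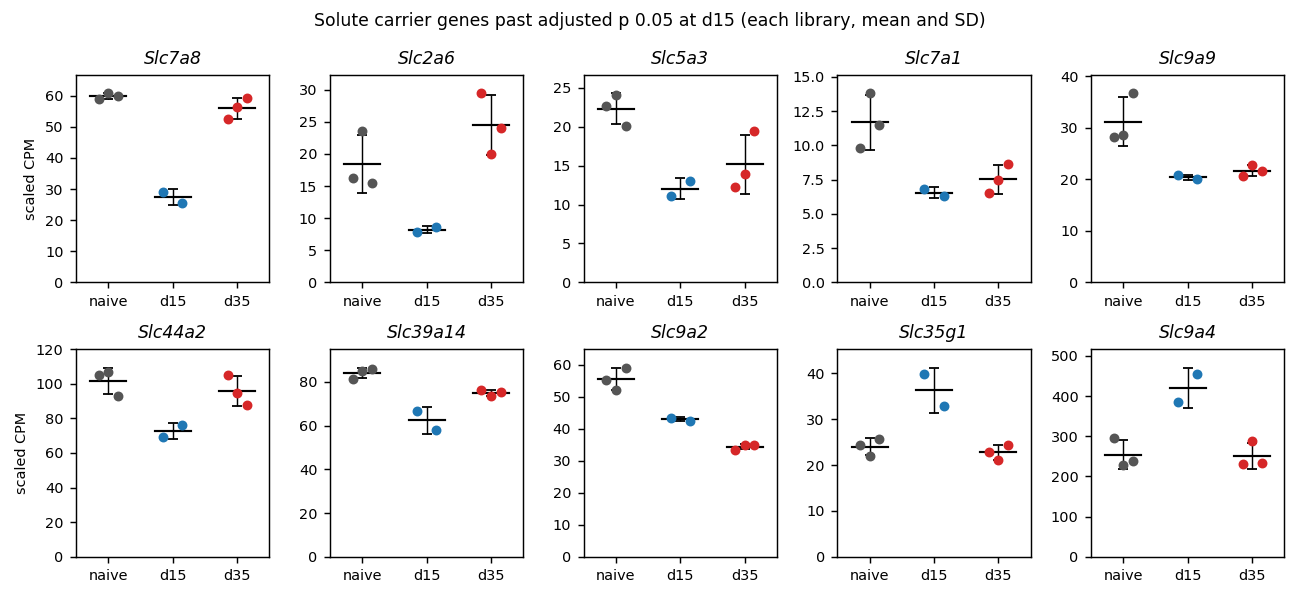
Scaled CPM of the 10 solute carrier genes past adjusted p 0.05 at d15, in each library by group (points), with the group mean and SD (bars). The d15 points of Slc7a8 at 29.2 and 25.6 lie below all naive and d35 points, and those of Slc9a4 at 386 and 456 lie above them.

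Other genes called at d15 included carriers of ions, choline, inositol and metals and the orphan Slc35g1. Slc9a4, a sodium/proton exchanger, was at 295, 228 and 238 scaled CPM in naive, 386 and 456 in d15 and 231, 289 and 233 in d35 libraries. It rose at d15 by 0.73 (SE 0.13, adjusted p = 0.0205), and d35 libraries were lower than d15 libraries (-0.75, SE 0.13, adjusted p = 0.00823). A provisional gene model on the opposite strand covers 16.7% of its exon, and reads of the 2 cannot be told apart without strand. Slc35g1, an orphan of the nucleotide sugar carrier family, was at 24.3, 22.0 and 25.7, then 39.8 and 32.8, then 22.9, 21.1 and 24.4. It rose at d15 (0.57, SE 0.12, adjusted p = 0.0297) and was lower at d35 than at d15 (-0.65, SE 0.12, adjusted p = 0.0104).

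The choline carrier-like Slc44a2 was at 92.8 to 107 scaled CPM in naive, 69.3 and 76.0 in d15 and 87.8 to 105 in d35 libraries, and it fell at d15 (-0.48, SE 0.098, adjusted p = 0.0284). Slc39a14, an importer of zinc and iron, was at 81.3 to 86.0, 58.2 and 66.8, and 73.5 to 76.2, and it fell at d15 (-0.42, SE 0.082, adjusted p = 0.0251). The inositol carrier Slc5a3 was at 20.1 to 24.0, 11.1 and 13, and 12.2 to 19.4, lower at both times (-0.83 and -0.55, adjusted p = 0.0315 and 0.0401). In each of the 3 genes the d15 libraries did not overlap the naive ones.

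Only the fall of Slc7a8 at d15 was called under all 20 alternative settings run. Without naive replicate 2, d15 replicate A or d15 replicate B, it was the 1 member called, and 3 were called without naive replicate 3 and 17 without d35 replicate 3. Across genes grouped by length, the d15 fold change had a median of 0.17 for the shortest group and -0.13 for the group of longest genes, and that of the members ran from 0.13 to -0.17. With that trend removed, 6 members were called, 3 higher and 3 lower, in place of 2 and 8. At d15, 4 of 23 genes of a dissociation and heat-shock list were higher (17.4%, where 2.37% of all genes were higher). The list summed to 6871 to 11500 scaled CPM in naive and 11360 and 12800 in d15 libraries, and its part in the d15 calls was not tested. In the authors' deposited table of this comparison, 7 of the 183 members listed were past 0.05, 2 higher and 5 lower (3.83%, against 3.61% of all its genes, 1.67% higher and 1.94% lower). They were Slc7a8 (log2 fold change -1.14), Slc9a4 (0.71), Slc44a2 (-0.50), Slc6a6 (-0.30), Slc35f6 (-0.40), Slc3a2 (-0.36) and Slc25a5 (0.30). Slc2a6 missed the threshold there (-1.17, adjusted p = 0.0512).

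Of nucleoside carriers, none of the 4 tested members of 5 was called in any comparison by limma or edgeR. Of all genes, limma called 4.37% at d15, 16.2% at d35 and 7.39% between d35 and d15, and 4 genes are too few to set against these shares. None of the 4 had an unadjusted p under 0.05 against naive libraries, and between d35 and d15 there was 1, which DESeq2 called. Slc29a1, the equilibrative carrier of the cell surface, was at 332 to 361 scaled CPM in naive, 327 and 337 in d15 and 298 to 335 in d35 libraries (log2 fold change at d35 -0.12, SE 0.07, adjusted p = 0.253). Slc29a3, the lysosomal member, was at 31.7 to 35.8, 26.4 and 28.4, and 32.3 to 42.5. Slc28a2, which takes up purine nucleosides with sodium, was below the filter at 0.371 to 1.03 scaled CPM in naive libraries. Of 17 tested genes of nucleoside salvage and breakdown, 2 were higher at d35 (11.8%, where 9.86% of all genes were higher). They were the adenine salvage enzyme Aprt (0.34) and xanthine dehydrogenase Xdh (0.47).

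Of 29 metal and heme carriers, all tested, 6 were higher and 1 lower than in naive libraries (24.1%, against 16.2% of all genes), where 1 of the 6, Slc39a4, was tested only because of its d35 values, with a class median log2 fold change of 0.16. Against d15, 5 were higher and 2 lower (24.1%, against 7.39% of all genes), and Slc39a4 was again 1 of the 5. The class summed to 1541 to 1575 scaled CPM in naive, 1589 and 1640 in d15 and 1655 to 1806 in d35 libraries. As a share of the signal over all genes it was 0.162% to 0.163%, 0.159% and 0.163%, and 0.160% to 0.171%, so the groups overlapped.

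Of the zinc carriers, Slc30a4, which loads zinc into vesicles and is mutated in the lethal milk mouse, was at 1.93, 1.32 and 2.35 scaled CPM in naive, 1.58 and 3.68 in d15 and 12.7, 8.05 and 7.75 in d35 libraries. All d35 libraries lay above the 5 others, 5.08-fold over naive (log2 fold change 1.86, SE 0.26, adjusted p = 0.00184). Its promoter window above holds 4 TGCNCNC matches, as does that of Slc7a8, while that of the copper carrier Slc31a1 holds 0. Slc39a4, a zinc importer known best from the gut and mutated in acrodermatitis enteropathica, was at 0.185, 0.259 and 0.0884 in naive, 0.114 and 0.288 in d15 and 3.42, 1.69 and 2.63 in d35 libraries. These values rest on 5, 10 and 2 reads in naive, 3 and 9 in d15 and 98, 55 and 100 in d35 libraries. It entered the test only through the d35 libraries, so its difference of 1.58 is given as a description. Slc39a12, another zinc importer, went the other way, from 5.2 to 5.80 in naive libraries to 3.42 to 3.70 at d35 (-0.51, SE 0.15, adjusted p = 0.0437). Slc39a10 was at 138 to 153 in naive, 153 and 181 in d15 and 113 to 137 in d35 libraries, and d35 was lower than d15 (-0.40, SE 0.10, adjusted p = 0.0374). The surface exporter Slc30a1 was at 2.99 to 6.16 and 3.36 to 5.19, and the importer Slc39a1 at 2.74 to 3.94 and 4.08 to 4.33 in naive and d35 libraries, and neither passed the test.

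Both copper carriers rose at d35. Slc31a1, the copper importer of the cell surface, was at 28.3, 30.3 and 33.0 scaled CPM in naive, 34.9 and 36.9 in d15 and 61.8, 44.1 and 59.3 in d35 libraries. The 3 groups did not overlap, and d35 was above naive by 0.82 (SE 0.12, adjusted p = 0.00293) and above d15 by 0.59 (SE 0.14, adjusted p = 0.0285). Slc31a2, its endosomal relative, was at 110, 100 and 109, then 132 and 119, then 159, 131 and 139, and rose by 0.42 at d35 (SE 0.086, adjusted p = 0.0117). The 2 genes are neighbours on chromosome 4, at 62360727 to 62391769 and 62262562 to 62298411.

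For iron and heme, Slc11a1, a metal carrier of macrophage phagosomes, was at 3.75, 2.98 and 2.28 scaled CPM in naive, 1.65 and 1.77 in d15 and 21.6, 6.22 and 5.58 in d35 libraries. It rose at d35 (1.37, SE 0.39, adjusted p = 0.0373), with d35 replicate 1 far above the other two, and without that library the fold change was 0.80 and still called. The call was lost under 9 of 21 settings, among them leaving out any 1 naive or d15 library, with adjusted p up to 0.109. Replicate 1 of d35 also had the highest monocyte and interstitial macrophage sum, 1352 scaled CPM, and the highest neutrophil sum, 271, and the part of such cells in the rise was not tested. The iron exporter Slc40a1 was at 9.49 to 16.6 in naive and 16.1 to 29.9 in d35 libraries (0.71, adjusted p = 0.0798). Slc11a2, the iron importer of endosomes, was at 21.0 to 25.0 and 25.1 to 29.2 (0.20, adjusted p = 0.19), and the heme carrier Slc48a1 at 230 to 238 and 248 to 273 (0.16, adjusted p = 0.111). Slc49a4, placed here by its family number alone, was at 128 to 150 in naive and 178 to 186 in d35 libraries and rose (0.39, SE 0.073, adjusted p = 0.00776).

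**Figure D4:**
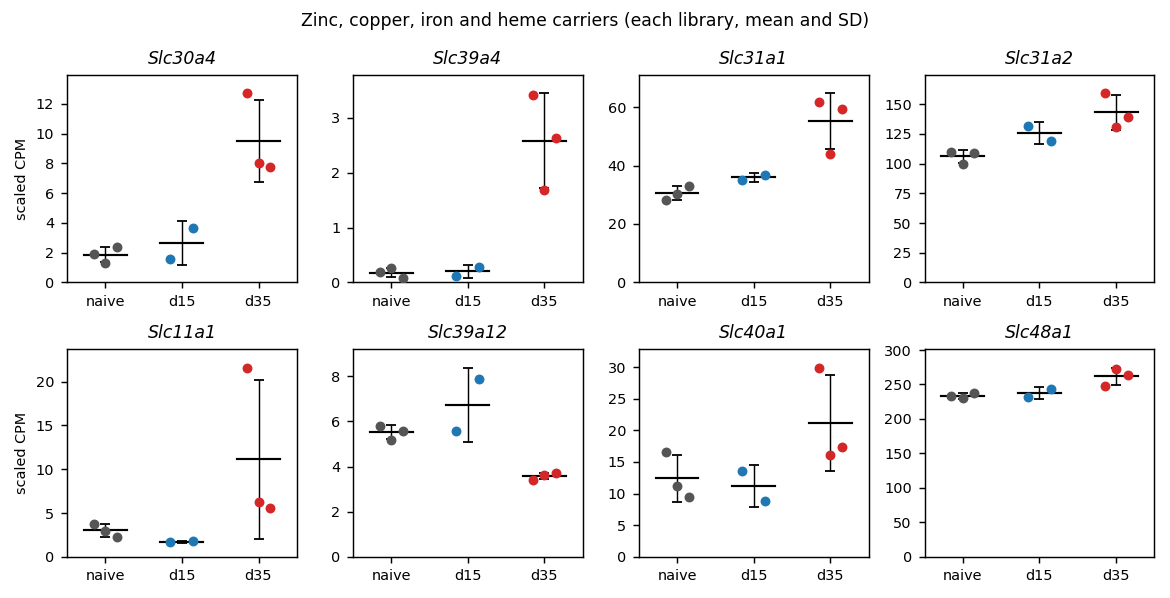
Scaled CPM of 8 carriers of zinc, copper, iron and heme in each library by group (points), with the group mean and SD (bars). In the Slc30a4 panel the d35 points at 7.75 to 12.7 lie above all others, and in the Slc11a1 panel 1 d35 point at 21.6 stands apart.

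Other genes of metal handling were followed from a list of 22 in the table. Of 20 tested, 7 were higher and 2 lower at d35 (45.0%, against 16.2% of all genes). None passed at d15 by limma or edgeR, where 5 had an unadjusted p under 0.05 and DESeq2 called 2. Of all genes, limma called 4.37% at d15. The ferritin chains Fth1 and Ftl1, which store iron, rose by 0.65 and 0.49, and Hmox1, which breaks down heme, rose by 0.62 from 123 to 138 scaled CPM in naive to 185 to 229 in d35 libraries. The zinc- and copper-binding metallothioneins Mt1 and Mt2 rose by 0.64 and 0.81. Mt1 was at 106 to 114 in naive and 152 to 198 in d35 libraries. The copper chaperone Atox1 rose by 0.68 and the mitochondrial exporter Abcb8 by 0.30. The ferritin receptor of autophagy Ncoa4 fell by 0.34 and the heme and choline carrier family member Flvcr2 by 0.37. Mtf1 itself was at 37.6 to 44.5 in naive and 35 to 44.3 in d35 libraries (-0.027, adjusted p = 0.886). Of the 5 metal carrier genes higher at d35 with a promoter entry, 4 held the TGCNCNC core, against 65.4% of all metal and heme carrier windows.

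Mitochondrial carriers had few calls. Of 36 tested members of 39, none was called at d15 by limma or edgeR, where limma called 4.37% of all genes. At that time 5 had an unadjusted p under 0.05 and DESeq2 called 3. At d35 1 was higher and 1 lower (5.56%, against 16.2% of all genes). The lower one, Slc25a16, was at 56.5 to 67.9 in naive and 45.5 to 48.9 in d35 libraries and fell (-0.40, SE 0.083, adjusted p = 0.0133). Slc25a37, mitoferrin, which imports iron for heme synthesis, was at 13.3 to 15.6 in naive, 7.96 and 9.83 in d15 and 13.7 to 18.6 in d35 libraries. It was higher at d35 than at d15 (0.80, SE 0.15, adjusted p = 0.0118).

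The energy carriers of mitochondria were among the abundant members. The ADP/ATP carrier Slc25a5 was at 614 to 696 scaled CPM in naive, 801 and 805 in d15 and 679 to 771 in d35 libraries, above naive at d15 without passing the test (0.32, adjusted p = 0.0582). Its paralog Slc25a4 was at 95.6 to 109, 112 and 114, and 107 to 124. The phosphate carrier Slc25a3 was at 188 to 221, 217 and 229, and 215 to 262, the citrate carrier Slc25a1 at 82.9 to 93.2, 98.0 and 111, and 74.5 to 93.1, and the acylcarnitine carrier Slc25a20 at 63.9 to 78.8, 79.9 and 84.9, and 69.7 to 90.0. None of the 4 last-named genes passed the test in any comparison. Of 13 genes of mitochondrial pyruvate, calcium and outer membrane channels, 5 were higher at d35 (38.5%, where 9.86% of all genes were higher). They were Tspo (0.87), which binds cholesterol in the outer membrane, the pyruvate carrier subunit Mpc1 (0.49), the calcium uniporter subunit Smdt1 (0.41), Mtch2 (0.37) and the porin Vdac2 (0.26).

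Of 6 tested monocarboxylate carriers, 4 were called at d35 (66.7%, against 16.2% of all genes), 1 higher and 3 lower. Slc16a1, which moves lactate and pyruvate with protons, was at 47.8, 44.8 and 53.4 scaled CPM in naive, 59.4 and 55.5 in d15 and 80.3, 73.2 and 62.0 in d35 libraries. It rose at d35 (0.55, SE 0.10, adjusted p = 0.00825), and no 2 groups overlapped. Slc16a7, its relative of higher affinity, was at 35.8, 37.8 and 34.7, then 31.7 and 30.6, then 25.6, 26.1 and 27.3, and fell at d35 (-0.44, SE 0.081, adjusted p = 0.00753). Slc16a14 was at 5.32 to 5.87 in naive, 5.47 and 6.77 in d15 and 1.23 to 2.69 in d35 libraries, and fell against both (-1.15 and -1.25, adjusted p = 0.00518 and 0.00742). Slc16a9 fell from 2.03 to 2.81 in naive to 0.33 to 1.08 in d35 libraries (-1.06, SE 0.24, adjusted p = 0.018). Antisense genes cover part of its exon, 12.7% for the longer, so its counts are uncertain without strand. Bsg and Emb, the chaperones that bring these carriers to the surface, were at 267 to 289 and 109 to 135 in naive libraries and 334 to 359 and 108 to 208 in d35 libraries, and Bsg rose (0.32, adjusted p = 0.012).

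Of 26 tested inorganic ion carriers, 2 were higher and 4 lower at d35 (23.1%, against 16.2% of all genes). All 4 falls were sodium/proton exchangers of the Slc9 family, of which 8 were tested, where 6.32% of all genes tested were lower. The other 4 were not called, with fitted changes below 0 (for Slc9a4 -0.014), as were those of 5678 of the 11273 genes tested. Slc9a2 was at 55.3, 52.1 and 59.1 scaled CPM in naive, 43.4 and 42.6 in d15 and 33.5, 34.9 and 35 in d35 libraries. The 3 groups did not overlap, and it fell at d15 (-0.36, SE 0.087, adjusted p = 0.046) and at d35 (-0.67, SE 0.078, adjusted p = 0.000647). The endosomal Slc9a9 was at 28.3 to 36.7, 20.1 and 20.8, and 20.6 to 22.9, lower at d15 (-0.58, adjusted p = 0.0345) and at d35 (-0.49, adjusted p = 0.0175). The Golgi members Slc9a7 and Slc9a8 fell at d35 by 0.35 and 0.36 (adjusted p = 0.0308 and 0.0478), calls that were lost under 6 and 14 of 21 settings.

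Among the rises in this class, Slc12a2, which brings in sodium, potassium and chloride together, was at 1.33, 2.16 and 2.07 scaled CPM in naive, 1.91 and 1.44 in d15 and 6.47, 3.76 and 8.41 in d35 libraries (1.30, SE 0.25, adjusted p = 0.00826). Slc8b1, the sodium/calcium exchanger of mitochondria, was at 67.4 to 69.6 in naive and 81.7 to 87.6 in d35 libraries and rose (0.30, adjusted p = 0.0296). Slc4a5, a bicarbonate carrier that also entered the test only through the d35 libraries, was at 1.37 to 1.93 there and 0.258 and 0.44 at d15. The sodium/calcium exchanger Slc8a1 was higher than at d15, at 9.84 to 12.5 against 7.06 and 7.51. Of 8 tested genes of the sodium pump and transporter chaperones, 3 were higher at d35 (37.5%, where 9.86% of all genes were higher). Among them were Bsg and Fxyd5 (0.31), a regulator of the pump. The phosphate carrier Slc34a2, which marks alveolar type 2 epithelium, was at 0.555, 4.19 and 0.866 in naive, 1.52 and 1.62 in d15 and 0.781, 2.81 and 1.82 in d35 libraries, with overlapping groups.

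Carriers of lipids, amines and other organic solutes included low genes with higher values at d35 and more abundant genes that fell. The creatine carrier Slc6a8 was at 0.723, 0.877 and 0.548 scaled CPM in naive, 0.44 and 0.0455 in d15 and 3.38, 1.69 and 3.15 in d35 libraries (difference 1.1). Slc22a4, which takes up the antioxidant ergothioneine, was at 0.21 to 0.319, 0.0489 and 0.409, and 1.54 to 2.72 (difference 1.19). Both genes, and Slc44a3 below, entered the test only through the d35 libraries, so their differences are descriptions. The carnitine carrier Slc22a5, its neighbour on chromosome 11, was at 22.5 to 28.3 in naive and 16.2 to 18.9 in d35 libraries and fell (-0.46, SE 0.11, adjusted p = 0.0234). Of the choline carrier-like family, Slc44a1 was at 14.7 to 16.1 in naive and 17.4 to 26.3 in d35 libraries and rose (0.50, adjusted p = 0.0365), and Slc44a3 was at 0, 4 and 2 reads in naive and 32, 14 and 51 in d35 libraries. The fatty acid carrier Slc27a4 was at 25.5 to 35.1 in naive and 28.6 to 36.1 in d35 libraries, and the lysosomal peptide carrier Slc15a3 at 66.7 to 74.1 and 56.1 to 83.3, with no call.

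The serotonin carrier Slc6a4 was at 132, 123 and 123 scaled CPM in naive, 119 and 115 in d15 and 78.6, 113 and 102 in d35 libraries. Its fall at d35 was small (-0.38, SE 0.11, adjusted p = 0.0474) and was lost under 14 of 21 settings, as was that of Slc9a8. Slc6a4 is also carried by lung endothelium, of which 9 of 14 marker genes fell at d35, and their part in its fall was not tested. Without d35 replicate 1, the lowest library, the fold change of Slc6a4 was -0.23. The vitamin C carrier Slc23a2 fell from 139 to 143 in naive to 108 to 122 in d35 libraries (-0.27, adjusted p = 0.0237). The riboflavin carrier Slc52a3 was at 71.3 to 82.4, 99.8 and 112, and 63.6 to 81.7, and was lower at d35 than at d15 (-0.59, SE 0.12, adjusted p = 0.0141).

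Of 19 tested nucleotide sugar carriers of the Slc35 family, which feed glycosylation in the Golgi and endoplasmic reticulum, 2 were higher at d35. This is 10.5% of those tested, where 9.86% of all genes were higher. Slc35b1, which exchanges ATP for ADP across the endoplasmic reticulum, was at 58.1, 54.6 and 59.5 scaled CPM in naive, 63.9 and 66.1 in d15 and 79.7, 72.7 and 84.0 in d35 libraries, and rose by 0.45 (SE 0.078, adjusted p = 0.00569). Slc35e4, with no assigned substrate, was at 41.0, 43.7 and 43.3, then 43.3 and 40.1, then 84.7, 45.4 and 81.7. Replicate 2 of d35 lay close to the naive libraries, and the call (0.66, adjusted p = 0.04) was lost under 12 of 21 settings. Slc9a3r2, a scaffold that binds carriers and is no transporter, was at 38.3 to 42.2 in naive and 50.2 to 52.2 in d35 libraries and rose (0.33, adjusted p = 0.0387). Among 24 tested lysosomal and atypical carriers named outside the Slc system, 3 were higher at d35 and 1 lower (16.7%, against 16.2% of all genes). Those higher were Unc93b1, which escorts Toll-like receptors, the lysosomal amino acid carrier Pqlc2 and the lysosomal channel Mcoln2. The lower one, Mfsd6, was at 31.0 to 36.4 in naive, 9.30 and 10.7 in d15 and 13.8 to 20 in d35 libraries (-1.64 and -1.03). None of the 3 tested organic anion carriers of the Slco family was called at d35 by limma, edgeR or DESeq2, with 1 at an unadjusted p under 0.05. Limma called 16.2% of all genes at d35, and 3 genes are too few to set against this share. The most abundant Slco gene, Slco2b1, was at 180 to 206 in naive and 140 to 205 in d35 libraries.

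**Figure D5:**
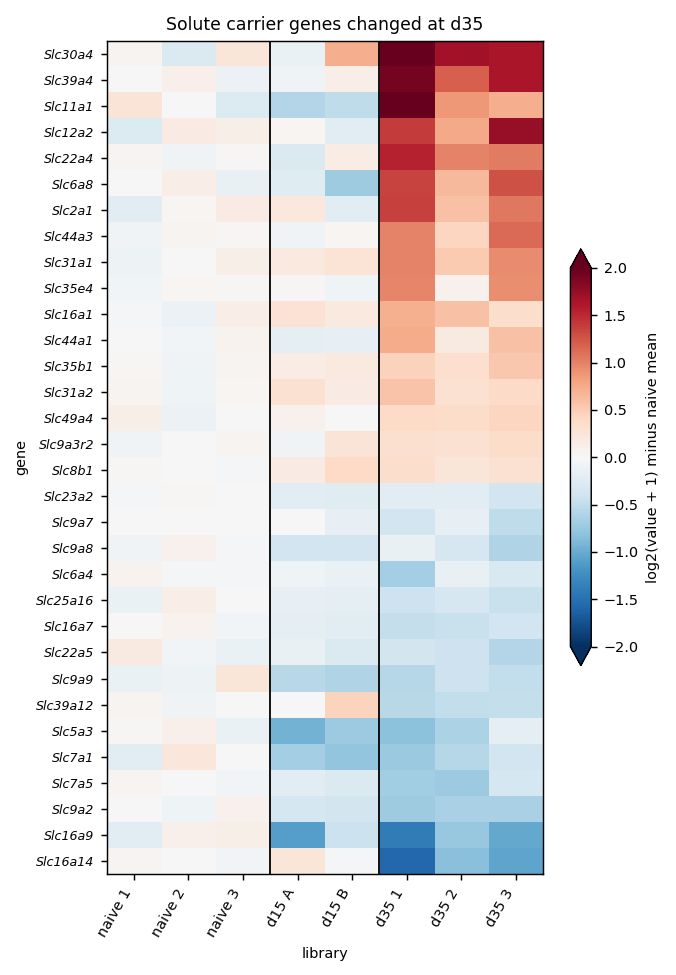
Log2(value + 1) minus the naive mean for 32 of the 33 solute carrier genes past adjusted p 0.05 at d35 (rows, ordered by fold change) in the 8 libraries (columns), with red above and blue below the naive mean and colours capped at 2. The 17 genes at the top are red and the 15 at the bottom blue in the d35 columns, and for genes such as Slc30a4, Slc12a2 and Slc35e4 d35 replicate 2 is paler than replicate 1.

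Of the 33 calls at d35, 13 held under every setting in which they could be tested, among them Slc30a4, Slc31a1, Slc2a1, Slc12a2, Slc16a1, Slc16a7, Slc16a14, Slc7a5 and Slc9a2. The 13 include Slc39a4 and Slc22a4, which entered the test only through the d35 libraries. When naive replicate 1, 2 or 3 was left out, 21, 15 or 16 members were called, and 21 were called when d35 replicate 1 or 3 was left out. The d35 calls of Slc5a3, Slc44a1, Slc39a12 and Slc9a3r2 were lost under 11, 9, 9 and 8 of 21 settings. Slc8a1 and Slc3a2 lost their calls between d35 and d15 under 12 and 9 of 20 settings. Between d35 and d15, the calls of Slc7a8 and Slc2a6 held under every setting, and the number called was 8 without d15 replicate A and 6 without d15 replicate B.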

How the data were processed

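RNA sequencing of sorted alveolar macrophages gave 8 libraries, grouped by their labels. STAR 2.5, the build mm10 and edgeR are named in the submitters' processing notes, while the sources used here name no counting program, annotation or strand setting. The authors deposited, for each gene and library, a signal scaled by library size, and 100% of its values came out as whole reads plus 0.5 within 0.001. The d15 columns carry numbers other than those of the sample titles, so they were assigned to the group only, as replicate A and replicate B. The authors' deposited table for d15 gives log2 values (fold change and level), p-values and a score from a likelihood-ratio test, per the file headers.

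From these values, limma 3.58.1 (R 4.3.3) fitted log2(value + 1), with its prior variance following intensity, for the 11273 genes at 1 or more in at least 2 libraries, with all 8 libraries sharing the spread (residual df 5, prior df 5.72) and Benjamini-Hochberg adjustment at 0.05 over all genes tested. The step was tested on simulated data. Alternatives were edgeR 4.0.16 and DESeq2 1.42.0 on recovered reads, limma-voom, other scalings, filters, pseudocounts, a correction for gene length, a replicate block and leaving out each library. Exon length and gene position came from GENCODE for GRCm38, the sequence of mm10. Named genes were all members called, the highest and the most significant member of each class, a fixed set of well-known carriers, and members of related lists. The members, classes and lists were chosen with earlier results of these data known. Results for a few genes are not reported here.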

Additional observations from a re-analysis of the deposited data

Results flagged for a closer look

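For 23 solute carrier genes (11.9% of those tested, against 7.39% of all genes tested) d35 and d15 libraries differed (d35 minus d15, limma, adjusted p of 0.05). These are the calls of the comparison of d35 with d15 above, and 21 of them were lost under at least 1 setting. The log2 differences above 0 were Slc11a1 1.92, Slc6a8 1.58, Slc30a4 1.56, Slc39a4 1.55, Slc2a6 1.45, Slc12a2 1.38, Slc22a4 1.26, Slc2a1 1.00, Slc7a8 1.00, Slc4a5 0.95, Slc25a37 0.80, Slc44a1 0.69, Slc31a1 0.59, Slc8a1 0.56, Slc44a2 0.39, Slc3a2 0.37 and Slc49a4 0.35. Those below 0 were Slc16a14 -1.25, Slc9a4 -0.75, Slc39a12 -0.74, Slc35g1 -0.65, Slc52a3 -0.59 and Slc39a10 -0.40. For Slc7a8, Slc2a6, Slc9a4, Slc35g1, Slc44a2, Slc3a2, Slc25a37, Slc8a1 and Slc52a3 the naive and d35 libraries overlapped while both d15 libraries lay outside them. Slc6a8, Slc39a4, Slc22a4 and Slc4a5 entered the test only through their d35 values.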

How the results depend on the processing

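No call of a solute carrier gene reversed under any setting run. At d15, where 10 were called, DESeq2 called 24, a fit of only the groups compared 19, the length correction 6 and limma without an intensity trend 1. Between d35 and d15, where 23 were called, DESeq2 called 38 and only the groups compared 13. At d35 the 33 calls became 44 with DESeq2, 24 without the trend and 27 with the length correction. Leaving out 1 library gave 1 to 17 at d15, 15 to 34 at d35 and 6 to 29 between d35 and d15. Other pseudocounts, scalings, filters, edgeR and limma-voom stayed within 1.5 times the counts reported. The causes of these differences were not tested, except that leaving out a library leaves fewer samples. Where the lone d15 library was left, it was assumed to vary like the other groups. With a replicate block, possible only for d35 against naive, 28 members were called, 16 higher and 12 lower, and 26 of the 33 calls remained. Same-numbered libraries correlated at -0.00708, -0.0456 and 0.147 in their deviations from group means, and not every sample correlated best with its own number. With so few libraries a group, these values cannot show whether same-numbered samples share more than a number. Without a filter all 223 members were tested, and 9, 33 and 25 were called at d15, at d35 and between d35 and d15. Of the 30 members below the filter, 1, Slc4a4, was then called, at 0, 8 and 1 reads in naive, 0 and 1 in d15 and 32, 14 and 30 in d35 libraries. The d15 group has 2 libraries.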
